A study of Mus musculus with 32 samples.

Results

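Ccn1, Ccn2, Thbs1, Ankrd1, Amotl2, Ajuba and Axl, 7 genes that are widely used as readouts of the coactivator YAP, were followed in YUMM3.3 melanoma cells treated with Activin-A, IFN-γ or both. They were chosen by name, and the Ensembl identifiers of all 7 were found among the 12451 genes of the count table (Cyr61 and Ctgf are older names of Ccn1 and Ccn2). YUMM3.3 cells come from a mouse melanoma with mutant Braf, and the mRNA of 32 wells was measured by BRB-seq, which tags the cDNA of each sample with a barcode, pools the samples and reads transcripts near their 3′ ends. The wells formed 8 groups of 4: untreated cells, cells given 40 ng/ml Activin-A, cells given 20 ng/ml IFN-γ and cells given both, each harvested at 4 hrs and at 12 hrs. The Activin-A dose is that of the labels, and some figure legends of the study state another one. All groups were wells of this single line seeded in 6-well plates, and no label describes them as independent cultures, so that p-values measure the spread between wells, which may be technical.

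YAP and its paralogue TAZ bind no DNA themselves and switch on genes through the TEAD transcription factors. The Hippo kinases hold them in the cytoplasm, and cell spreading and tension of the actin cytoskeleton release them. Activin-A signals through its receptor kinases to Smad2 and Smad3, which can act on some of the same genes, Ccn2 and Thbs1 among them, and in melanoma cells high YAP activity is known to accompany invasive states. The counts reported here are of mRNA, and YAP protein was not analysed here.

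Total counts ranged from 654539 to 1455074 per well with a median of 988019.5. In every main fit 7 of 7 genes passed the filter on low counts. Ankrd1 passed it at 4 hrs mainly through the wells with Activin-A alone, which had 9.07 to 16.8 CPM. Wells with IFN-γ or both factors had at most 8.57 CPM there, and untreated wells up to 14.1 CPM. Its tests within 4 hrs, and the medians of the 7 genes that include it, carry this limit. Under the stricter alternative of at least 10 counts in every well, Ankrd1 had no fit. Replicate 1 of Activin-A at 4 hrs stood apart from the other wells of its group. The chi-square of counts per gene, which takes reads as independent although it is unknown whether duplicates were collapsed, was 2.60 to 3.07 in its 3 pairs against 1.17 to 1.59 in the other 45 pairs of wells of a group, so the comparisons of the 7 genes with this group against untreated cells and against both factors, and the differences of effects, are also given without it, while values of list genes are given with it. Treatment with IFN-γ could be read from Irf1, which had 34.3 to 53.8 CPM (library-size scaled counts with TMM factors) in wells without it and 656 to 861 in wells with it, and from Gbp2 at 41.8 to 71.6 and 3048 to 4974. Of 10 melanocyte lineage markers 9 were in the table, Kit being the exception, with a summed level of 325 to 463 CPM, and Pmel, Tyrp1 and Dct had the highest levels of them averaged over the groups. The table had no row for any of 4 endothelial markers, and 4 of 6 leukocyte markers summed to 4.41 to 26.02 CPM. Of 6 fibroblast markers 5 were present, Lum being absent, and they moved with the groups at 12 hrs, from 63.9 to 73.5 CPM in untreated cells and 68.1 to 92.1 with Activin-A to 52.3 to 59.9 with IFN-γ and 46.6 to 52.0 with both, where Col1a1 made up most of the sum. Their part in the results for the 7 genes was not tested. In bulk RNA a change in the share of cells that express a gene and a change in the RNA per cell cannot be told apart.

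The promoters were searched for the letters bound by TEAD factors. Windows of 250 bases before the RefSeq start site (GRCm38.p6) were at hand for 5 of the 7 genes, Ccn1, Ankrd1, Amotl2, Ajuba and Axl, and the TEAD hexamer GGAATG, read on both strands as GGAATG or CATTCC, was present in 5 of 5 against 12.6% of 32817 windows of the same length. The stretches that hold it are printed with the hexamer in capitals, in the direction of the gene, because they are what these 5 genes share beside their name as YAP targets. Ccn1 is given with all 250 bases (chr3:145649986-145650235, minus strand) because it is the one of these genes that was called with Activin-A at both times, alone and under IFN-γ. Ajuba (chr14:54577804-54577863, minus strand) and Axl (chr7:25788924-25788983, minus strand) are given with 60 bases, while the stretches of Ankrd1 (chr19:36120037-36120066 and chr19:36119950-36119979, minus strand) and Amotl2 (chr9:102717727-102717756, plus strand) are limited to 30 bases, since longer transcripts in GENCODE M21 have an exon there.
Ccn1: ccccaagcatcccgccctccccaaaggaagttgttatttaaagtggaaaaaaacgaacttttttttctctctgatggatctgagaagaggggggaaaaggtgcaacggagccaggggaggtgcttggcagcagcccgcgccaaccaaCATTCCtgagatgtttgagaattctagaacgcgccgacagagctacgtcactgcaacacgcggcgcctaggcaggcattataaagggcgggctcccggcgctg
Ankrd1, farther from the start: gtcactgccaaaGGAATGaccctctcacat
Ankrd1, nearer to the start: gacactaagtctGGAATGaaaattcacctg
Amotl2: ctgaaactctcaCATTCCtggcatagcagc
Ajuba: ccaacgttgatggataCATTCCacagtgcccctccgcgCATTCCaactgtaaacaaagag
Axl: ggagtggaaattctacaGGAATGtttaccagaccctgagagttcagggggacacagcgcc

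Counted from the start site, the hexamer began at base -103 in Ccn1, at -65 in Amotl2 and at -233 in Axl. Ankrd1 held it at -210 and -123 and Ajuba at -186 and -164, and 1.02% of all windows held 2 or more. The Smad letters CAGAC, read on both strands as CAGAC or GTCTG, occurred in 3 of the 5 windows, those of Ankrd1, Ajuba and Axl, against 42.2% of all windows, and the GTCTG of Ankrd1 at -127 shared its last base with the TEAD hexamer at -123. The AP-1 motif TGANTCA (6.75% of windows), the CArG box bound by SRF (1.47%) and the GAS motif TTCNNNGAA of IFN-γ-responsive genes (7.01%, added to the search after the expression values were seen) were in 0 of the 5 windows on either strand. A match is a description of these letters and not evidence of a bound site, and no match speaks only of this window.

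**Figure D1:**
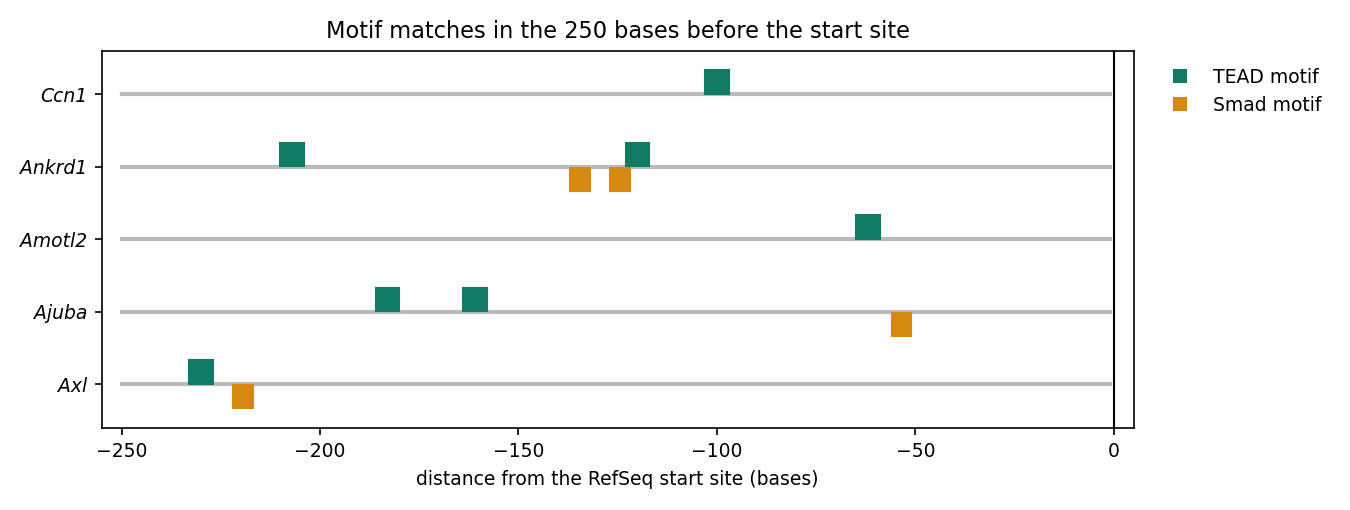
Positions of TEAD and Smad motif letters before the start site of the 5 genes with a promoter window. The x axis is the distance from the RefSeq start site in bases, each grey line is the 250 bases searched, and green and orange boxes are matches drawn to scale: all 5 genes carry 1 or 2 green boxes, while orange boxes are present in Ankrd1, Ajuba and Axl.

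Whether Activin-A alone acts on these genes was asked by comparing it with untreated cells. At 4 hrs 3 of the 7 rose, Ccn2, Ccn1 and Thbs1, and none fell, and the wells of both groups did not overlap for the same 3. In all, 1.64% of 9137 tested genes were called at an adjusted p under 0.05 (1.05% higher and 0.591% lower), and 6.19% had wells without overlap. At 12 hrs Amotl2 was added, so that 4 of 7 rose where 2.41% of 8971 tested genes were called (1.25% higher and 1.16% lower), and the wells of 6 of 7, Ankrd1 being the exception, did not overlap, against 6.89% of all. The median log2FC of the 7 was 0.69 at 4 hrs and 0.68 at 12 hrs, with medians over all genes of -0.0017 and -0.0031.

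Ccn2 encodes a secreted matricellular protein (connective tissue growth factor) that binds integrins and growth factors and promotes matrix production. Its levels were 73.8, 77.9, 65.9 and 95.9 CPM in untreated wells at 4 hrs and 301, 282, 236 and 246 CPM with Activin-A. At 12 hrs they were 125, 151, 132 and 126 CPM without and 512, 458, 453 and 556 CPM with Activin-A. Every treated well was above every untreated well at both times. The increase was 3.399-fold at 4 hrs (log2FC 1.77, SE 0.11, edgeR adjusted p = 2.59e-19) and 3.68-fold at 12 hrs (log2FC 1.88, SE 0.08, edgeR adjusted p = 5.13e-39), where it had the smallest p of all 8971 genes. Without replicate 1 of Activin-A the log2FC at 4 hrs was 1.68.

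Ccn1, its close relative (cysteine-rich angiogenic inducer), likewise acts through integrins. The wells held 168, 178, 168 and 189 CPM untreated and 420, 401, 355 and 366 CPM with Activin-A at 4 hrs. At 12 hrs they held 210, 234, 172 and 173 CPM untreated and 362, 396, 360 and 400 CPM with Activin-A. The treated wells at 4 and 12 hrs lay in one range, all above the untreated ones. Ccn1 was 2.20-fold higher at 4 hrs (log2FC 1.14, SE 0.09, edgeR adjusted p = 4.47e-15) and 1.89-fold higher at 12 hrs (log2FC 0.92, SE 0.08, edgeR adjusted p = 3.03e-17), and 1.08 on the log2 scale at 4 hrs without replicate 1.

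Thbs1 encodes thrombospondin 1, a matrix glycoprotein that binds CD47 and CD36, restrains angiogenesis and can activate latent TGF-β. Untreated wells had 740, 674, 767 and 767 CPM at 4 hrs, and wells with Activin-A had 1762, 1682, 1475 and 1409 CPM. At 12 hrs both were lower, with 537, 599, 566 and 603 CPM untreated and 1178, 1097, 1210 and 1362 CPM with Activin-A. The gap between the groups was much wider than the spread within them at either time. The increase was 2.15-fold at 4 hrs (log2FC 1.11, SE 0.06, edgeR adjusted p = 1.24e-20) and 2.10-fold at 12 hrs (log2FC 1.07, SE 0.06, edgeR adjusted p = 2.60e-30), and without replicate 1 the log2FC at 4 hrs was 1.04. In GENCODE M21 an exon of Thbs1 overlaps the opposite-strand Gm29233, and an exon of Ccn2 overlaps the opposite-strand Gm15270. Neither of these noncoding genes has a row in the table, and since the use of strand in counting is not given in the sources used here, reads from each partner cannot be told apart from those of Thbs1 or Ccn2.

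Among the 4 remaining genes, Amotl2 encodes an angiomotin family scaffold that binds and restrains YAP at cell junctions. At 12 hrs it had 75.8, 68.1, 70.5 and 56.1 CPM in untreated wells and 98.0, 103, 87.9 and 97.9 CPM with Activin-A, without overlap, and was 1.41-fold higher (log2FC 0.50, SE 0.12, edgeR adjusted p = 0.00510). At 4 hrs its wells overlapped, at 54.5 to 70.3 CPM and 58.2 to 84.2 CPM, and the log2FC of 0.24 was not called (95% interval -0.04 to 0.51, edgeR adjusted p = 0.545). Ajuba, a LIM domain protein that binds the LATS kinases and dampens Hippo signaling, had log2FC of 0.40 at both times, with intervals of 0.10 to 0.70 at 4 hrs and 0.12 to 0.68 at 12 hrs. Its wells at 12 hrs did not overlap (41.7 to 50.2 CPM untreated, 57.8 to 71.6 CPM with Activin-A), yet the edgeR adjusted p was 0.202 at 4 hrs and 0.141 at 12 hrs.

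Ankrd1 encodes a nuclear ankyrin repeat protein that responds to stretch and had few counts, 5 to 35 per well in the untreated and Activin-A groups. It had 14.1, 7.70, 5.49 and 4.995 CPM untreated and 14.5, 16.8, 14.1 and 9.07 CPM with Activin-A at 4 hrs. At 12 hrs it had 9.28, 19.7, 22.0 and 10.5 CPM untreated and 28.1, 27.1, 21.7 and 18.6 CPM with Activin-A. The groups overlapped at both times. Its log2FC of 0.69 and 0.68 had wide intervals of 0.04 to 1.34 and 0.17 to 1.19, and at this depth neither was called (edgeR adjusted p = 0.405 and 0.190). The value at 4 hrs is limited further, since Ankrd1 passed the filter there mainly through the wells with Activin-A alone. Axl encodes a receptor tyrosine kinase for Gas6 that marks dedifferentiated melanoma cells. With 938 to 1036 CPM untreated and 930 to 1041 CPM with Activin-A at 4 hrs it had a log2FC of 0.04, with an interval of -0.08 to 0.16. At 12 hrs its wells at 1076 to 1136 CPM lay above the untreated 956 to 1057 CPM, and the log2FC of 0.16 was not called (interval 0.06 to 0.27, edgeR adjusted p = 0.0749). Without replicate 4 of the untreated wells at 12 hrs it was called, at a log2FC of 0.20 with an edgeR adjusted p of 0.0379. Without replicate 1 of Activin-A at 4 hrs the log2FC there were 0.62 for Ankrd1, 0.15 for Amotl2, 0.40 for Ajuba and -0.00011 for Axl, with edgeR adjusted p from 0.339 to 0.99983, and none was called.

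**Figure D2:**
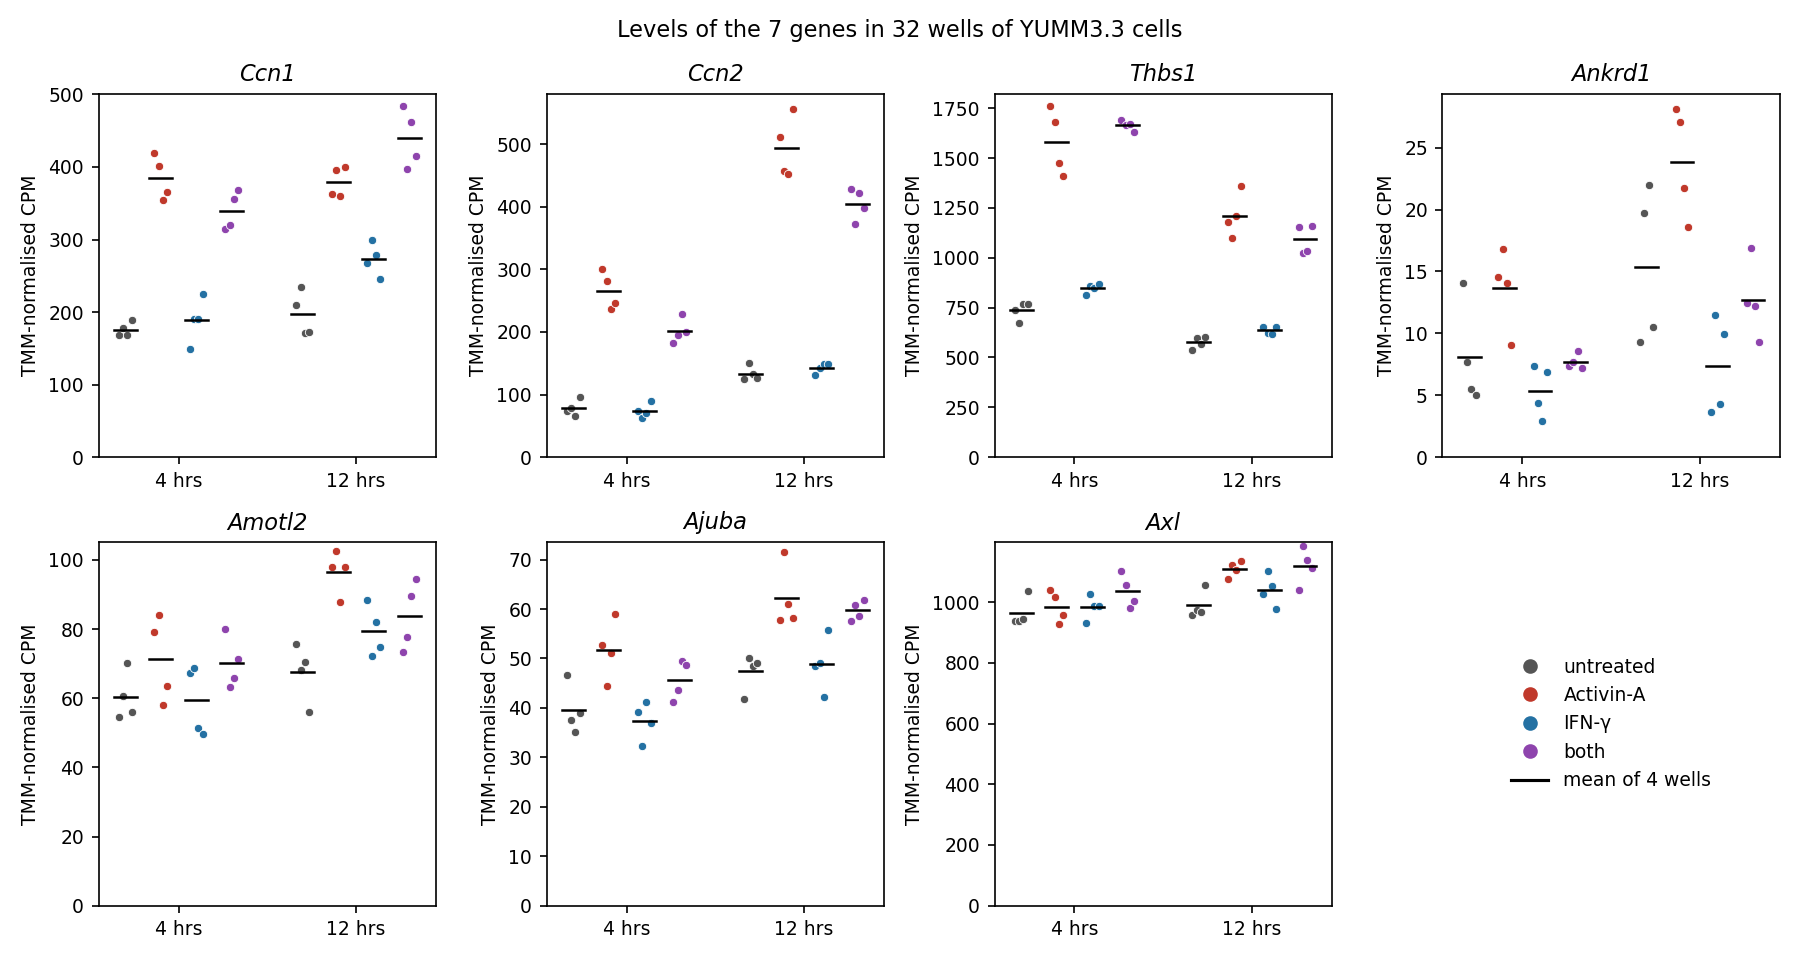
Levels of the 7 genes in all 32 wells, as TMM-normalised CPM on a linear y axis from 0, grouped by time on the x axis and coloured by treatment (bars, means of 4 wells). For Ccn1, Ccn2 and Thbs1 the wells with Activin-A, alone or with IFN-γ, lie above those without it at the same time, while the wells of Axl lie between 930 and 1186 CPM in all groups.

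Whether Activin-A moved the same genes in the presence of IFN-γ was asked by comparing both factors with IFN-γ alone. These wells are not shared with the comparison above. Again Ccn2, Ccn1 and Thbs1 rose and no gene fell: 3 of 7 at 4 hrs, where 0.81% of 9137 genes were called (0.558% higher and 0.252% lower), and 3 of 7 at 12 hrs, where 1.03% of 8971 were (0.457% higher and 0.568% lower). The wells of these 3 did not overlap at either time, nor did those of Ajuba at 12 hrs (shares over all genes of 5.99% and 5.66%). The medians of the 7 log2FC were 0.48 and 0.69, against -0.0077 and -0.0074 over all genes.

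Ccn2 had 73.5, 62.8, 70.6 and 89.99 CPM with IFN-γ and 182, 196, 229 and 200 CPM with both at 4 hrs, a 2.696-fold increase (log2FC 1.43, SE 0.12, edgeR adjusted p = 3.82e-14). At 12 hrs it had 131, 143, 149 and 149 CPM with IFN-γ and 429, 372, 422 and 397 CPM with both, which was 2.82-fold (log2FC 1.496, SE 0.08, edgeR adjusted p = 1.31e-29). The latter was the smallest p and the second highest log2FC among the genes tested. For Ccn1 the wells with IFN-γ at 149, 190, 191 and 225 CPM were below those with both at 314, 320, 356 and 368 CPM at 4 hrs (log2FC 0.83, SE 0.09, edgeR adjusted p = 1.17e-09). The same held at 12 hrs, with 268, 299, 279 and 246 CPM against 485, 398, 461 and 415 CPM (log2FC 0.69, SE 0.08, edgeR adjusted p = 7.90e-12).

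Thbs1 went from 814, 858, 850 and 867 CPM with IFN-γ to 1692, 1666, 1671 and 1632 CPM with both at 4 hrs (log2FC 0.97, SE 0.06, edgeR adjusted p = 3.80e-18). At 12 hrs it went from 651, 623, 620 and 654 CPM to 1152, 1025, 1036 and 1159 CPM (log2FC 0.78, SE 0.06, edgeR adjusted p = 1.89e-20). All wells with both factors were above all wells with IFN-γ alone. Amotl2, which Activin-A alone had raised at 12 hrs, had 88.5, 72.1, 82.1 and 74.8 CPM with IFN-γ and 73.4, 77.8, 89.6 and 94.4 CPM with both. The groups overlapped, and the log2FC of 0.09 was not called (interval -0.16 to 0.33, edgeR adjusted p = 0.898). At 4 hrs its log2FC was 0.23 (edgeR adjusted p = 0.672). For Ankrd1, Ajuba and Axl the log2FC ran from 0.07 to 0.48 at 4 hrs and from 0.11 to 0.72 at 12 hrs, with edgeR adjusted p from 0.471 to 0.811, and none was called.

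**Figure D3:**
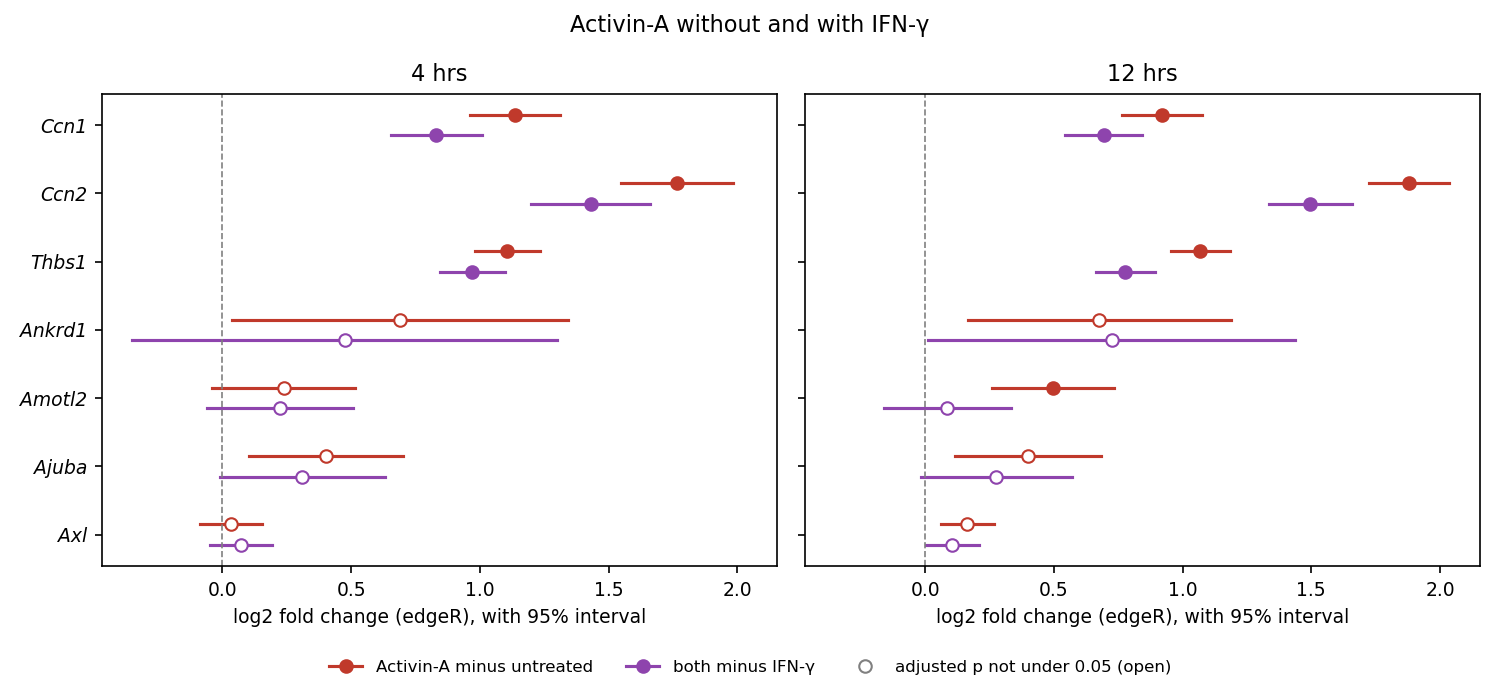
Log2 fold changes of the 7 genes for Activin-A against untreated cells (red) and for both factors against IFN-γ (purple) at 4 and 12 hrs, with 95% intervals from edgeR on the x axis and genes on the y axis. Filled points passed an adjusted p under 0.05: Ccn1, Ccn2 and Thbs1 are filled in all 4 comparisons, and Amotl2 in red at 12 hrs alone.

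The difference between these effects, that of Activin-A with IFN-γ minus that without, was tested as an interaction. None of the 7 genes was called by edgeR at either time, where 0% of 9137 genes at 4 hrs and 0.0111% of 8971 at 12 hrs (1 gene) were called, and DESeq2 called 0 genes at both times. At an unadjusted p under 0.05 edgeR had 2 of 7 at 4 hrs (505 of all genes; DESeq2 255) and 4 of 7 at 12 hrs (612 of all; DESeq2 310). For Ccn2 the effect under IFN-γ was lower by 0.33 on the log2 scale at 4 hrs (interval -0.66 to -0.01, edgeR adjusted p = 0.890) and by 0.38 at 12 hrs (interval -0.62 to -0.15, edgeR adjusted p = 0.301). For Thbs1 the difference was -0.14 at 4 hrs (interval -0.31 to 0.04) and -0.29 at 12 hrs (interval -0.45 to -0.13, edgeR adjusted p = 0.209), and for Ccn1 it was -0.31 and -0.23 (edgeR adjusted p = 0.824 and 0.711). Amotl2, which was called with Activin-A alone at 12 hrs and not under IFN-γ, differed by -0.41 there (interval -0.75 to -0.07, edgeR adjusted p = 0.630), so that a difference between both settings was not shown, and by -0.01 at 4 hrs (interval -0.41 to 0.38). For Ankrd1 the difference was -0.21 at 4 hrs (interval -1.30 to 0.87) and 0.05 at 12 hrs (interval -0.77 to 0.86), wider than for any other of the 7 genes. For Ajuba it was -0.09 and -0.12 and for Axl 0.04 and -0.06, these 6 values with edgeR adjusted p from 0.956 to 0.996. Without replicate 1 of Activin-A the differences at 4 hrs were -0.25 for Ccn1, -0.24 for Ccn2, -0.06 for Thbs1, -0.14 for Ankrd1, 0.08 for Amotl2, -0.08 for Ajuba and 0.08 for Axl, and none was called (edgeR adjusted p from 0.870 to 0.9897). The median of the 7 differences was -0.14 at 4 hrs and -0.23 at 12 hrs, and that over all genes -0.0091 and -0.0055.

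The effects of Activin-A at 12 hrs were compared with those at 4 hrs in one fit of all 32 wells. None of the 7 genes was called, where edgeR called 0.0214% of 9332 genes for Activin-A alone and 0.0964% under IFN-γ (0.0429% higher and 0.0536% lower at 12 hrs). At an unadjusted p under 0.05 there were 0 of 7 genes (569 of all) and 1 of 7 (622 of all), Thbs1 under IFN-γ, whose effect was lower by 0.20 on the log2 scale at 12 hrs (interval -0.37 to -0.02, edgeR adjusted p = 0.670). DESeq2 called 2 and 5 genes in all. For Ccn2 the differences were 0.12 without IFN-γ (interval -0.16 to 0.40) and 0.06 with it (interval -0.23 to 0.36). For Ccn1 they were -0.21 and -0.14, for Thbs1 -0.03 without IFN-γ, for Amotl2 0.27 and -0.14, for Axl 0.14 and 0.03, for Ajuba 0.0029 and -0.04, and for Ankrd1 -0.0049 and 0.25, the latter with an interval of -0.88 to 1.37. Without replicate 1 of Activin-A at 4 hrs the differences without IFN-γ were 0.20 for Ccn2, -0.16 for Ccn1, 0.02 for Thbs1, 0.35 for Amotl2, 0.16 for Axl, -0.0015 for Ajuba and 0.05 for Ankrd1, and none was called (edgeR adjusted p from 0.757 to 0.9988).

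The untreated wells moved with time in opposite directions for 2 of the genes, where 4.9% of 9332 genes were called (2.33% higher and 2.57% lower). Ccn2 went from 78.4 ± 12.7 CPM at 4 hrs to 134 ± 11.7 CPM at 12 hrs (SD, n = 4), a 1.70-fold increase (log2FC 0.77, SE 0.11, edgeR adjusted p = 5.77e-07). Thbs1 fell from 737 ± 44.3 CPM to 576 ± 31.2 CPM, by 0.36 on the log2 scale (SE 0.06, edgeR adjusted p = 5.49e-05). The wells of both genes did not overlap between times, as was the case for 11% of all genes. Ankrd1 had a log2FC of 0.86 that was not called (interval 0.21 to 1.504, edgeR adjusted p = 0.117). Without replicate 1 of the untreated wells at 4 hrs, the well with 14.1 CPM, its log2FC was 1.29 and it was called (edgeR adjusted p = 0.0300). For Ccn1, Amotl2, Ajuba and Axl the log2FC lay between 0.04 and 0.24 with adjusted p from 0.306 to 0.811 in edgeR.

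IFN-γ alone was then compared with untreated cells, a comparison that shares the untreated wells with that of Activin-A alone. At 12 hrs Ccn1 rose and Ankrd1 fell, 2 of 7 where 9.25% of all genes were called (6.43% higher and 2.82% lower), and at 4 hrs 1 of 7 rose, Thbs1, where 5.06% were called (4.29% higher and 0.766% lower). The wells of Thbs1 at 4 hrs, and those of Ccn1 and Thbs1 at 12 hrs, did not overlap, against 9.39% and 12.5% of all genes. Ccn1 at 12 hrs, with 268, 299, 279 and 246 CPM against the untreated 210, 234, 172 and 173 CPM, was 1.361-fold higher, and its wells did not overlap (log2FC 0.44, SE 0.08, edgeR adjusted p = 1.67e-05). At 4 hrs the log2FC of Ccn1 was 0.13 (interval -0.07 to 0.32). The call of Thbs1 at 4 hrs was a small one, with 814, 858, 850 and 867 CPM against 740, 674, 767 and 767 CPM (log2FC 0.21, SE 0.06, edgeR adjusted p = 0.0368). It was lost with DESeq2 (adjusted p = 0.0952), and with edgeR without replicate 1 or 2 of the untreated wells or replicate 2, 3 or 4 of IFN-γ (edgeR adjusted p from 0.0785 to 0.225). The replicate number as a block and the fit without a filter on low counts lost this call of Thbs1 too. Its log2FC at 12 hrs was 0.15 (edgeR adjusted p = 0.136).

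Ankrd1 had 3.64, 11.5, 4.32 and 9.98 CPM with IFN-γ at 12 hrs and 9.28, 19.7, 22.0 and 10.5 CPM untreated, and the wells overlapped. The log2FC was -0.97 (SE 0.33, edgeR adjusted p = 0.0484), and 1 well with IFN-γ had no more than 3 counts, the floor used here for detection. The call was lost with DESeq2 (adjusted p = 0.117) and with edgeR without any one of replicates 2 and 3 of the untreated wells and replicates 1 and 3 of IFN-γ (edgeR adjusted p from 0.178 to 0.233). At 4 hrs the log2FC of Ankrd1 was -0.57 and was not called (interval -1.39 to 0.25, edgeR adjusted p = 0.612). Ccn2 was not called with IFN-γ, with log2FC of -0.06 at 4 hrs (interval -0.33 to 0.21) and 0.10 at 12 hrs (interval -0.09 to 0.29). For Amotl2, Ajuba and Axl the log2FC ran from -0.10 to 0.20 over both times, and none was called.

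In the presence of Activin-A, IFN-γ was examined by comparing both factors with Activin-A alone. Ccn2 fell at both times. It was the 1 gene of 7 called at 4 hrs, where 6.07% of all genes were (4.41% higher and 1.66% lower), and 1 of 3 called at 12 hrs, where 9.62% were (6.18% higher and 3.44% lower). The 301, 282, 236 and 246 CPM with Activin-A at 4 hrs compared with 182, 196, 229 and 200 CPM with both, lower by 0.40 on the log2 scale (log2FC -0.40, SE 0.09, edgeR adjusted p = 0.00214), and without replicate 1 of Activin-A the log2FC was -0.31 (edgeR adjusted p = 0.0233). The 512, 458, 453 and 556 CPM at 12 hrs compared with 429, 372, 422 and 397 CPM (log2FC -0.28, SE 0.07, edgeR adjusted p = 0.00116). The wells did not overlap at either time, as was the case for 10.1% of all genes at 4 hrs and 12.2% at 12 hrs. Ccn2 with both factors thus lay between Activin-A alone and the groups without it at each time.

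Ccn1 was higher with both factors than with Activin-A alone at 12 hrs, at 485, 398, 461 and 415 CPM against 362, 396, 360 and 400 CPM, with overlapping wells (log2FC 0.22, SE 0.07, edgeR adjusted p = 0.0346). Without replicate 1 or 3 of either group, each left out in turn, it was not called (edgeR adjusted p from 0.107 to 0.194), nor with DESeq2 (adjusted p = 0.145). Nor was Ccn1 called here with all 32 wells in the fit. At 4 hrs its log2FC was -0.18 (edgeR adjusted p = 0.246). Ankrd1 fell at 12 hrs, from 28.1, 27.1, 21.7 and 18.6 CPM to 12.4, 16.9, 12.2 and 9.32 CPM without overlap (log2FC -0.93, SE 0.28, edgeR adjusted p = 0.0175). It was not called without replicate 1 or 2 of Activin-A or replicate 4 of both factors (edgeR adjusted p from 0.0592 to 0.0913), nor with DESeq2 (adjusted p = 0.0875). At 4 hrs its wells did not overlap either, at 9.07 to 16.8 CPM against 7.22 to 8.57 CPM, and its log2FC of -0.78 was not called (edgeR adjusted p = 0.188). There Ankrd1 passed the filter on low counts mainly through the wells with Activin-A alone, the higher group of this comparison. Thbs1 had log2FC of 0.08 at 4 hrs and -0.14 at 12 hrs, the latter with an edgeR adjusted p of 0.0878 that became 0.0293 without replicate 2 of Activin-A (log2FC -0.19). Amotl2, Ajuba and Axl had values from -0.21 to 0.08 and were not called. Without replicate 1 of Activin-A at 4 hrs the log2FC there were -0.12 for Ccn1, 0.14 for Thbs1, -0.72 for Ankrd1, 0.08 for Amotl2, -0.19 for Ajuba and 0.11 for Axl, with edgeR adjusted p from 0.122 to 0.898, and none was called.

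**Figure D4:**
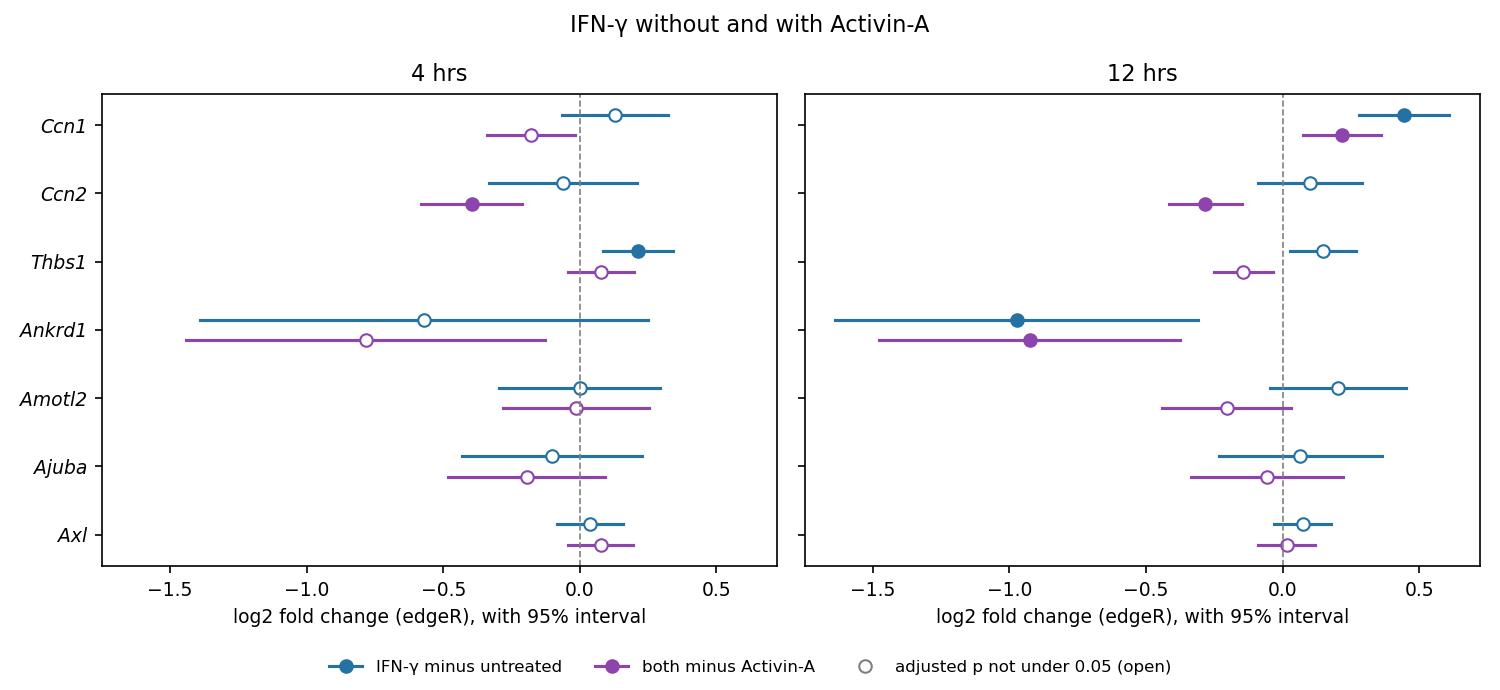
Log2 fold changes of the 7 genes for IFN-γ against untreated cells (blue) and for both factors against Activin-A (purple) at 4 and 12 hrs, with 95% intervals from edgeR on the x axis and genes on the y axis. Filled points passed an adjusted p under 0.05: Ccn2 is filled in purple, below 0, at both times, and the intervals of Ankrd1 are the widest.

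Ordered by mean level over the 8 groups, Ccn2 ran from IFN-γ at 4 hrs (74.2 CPM) and untreated at 4 hrs (78.4 CPM), which overlapped, through untreated (134 CPM) and IFN-γ (143 CPM) at 12 hrs, which overlapped too, to both factors (202 CPM) and Activin-A (266 CPM) at 4 hrs and both (405 CPM) and Activin-A (495 CPM) at 12 hrs, and no other neighbours in this order overlapped. Thbs1 had its lowest 4 groups without Activin-A and its highest 4 with it, from 576 CPM in untreated cells at 12 hrs to 1665 CPM with both factors at 4 hrs. In this order the neighbours that overlapped were both factors and Activin-A at 12 hrs and the same pair at 4 hrs. Ccn1 ran from 176 CPM untreated at 4 hrs to 440 CPM with both at 12 hrs, and all neighbours overlapped except at the steps into and out of IFN-γ at 12 hrs (273 CPM). For Ankrd1 (5.38 to 23.9 CPM), Amotl2 (59.3 to 96.6 CPM), Ajuba (37.4 to 62.2 CPM) and Axl (965 to 1120 CPM) every pair of neighbours overlapped, and the highest mean of Ankrd1, Amotl2 and Ajuba was with Activin-A at 12 hrs.

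Across the 32 wells, log2 CPM of Ccn1 and Ccn2 had a Pearson r of 0.91, and after each group's mean was subtracted an r of 0.55. The wells share treatments, times and the depth of a pooled library, and these values are a description. The other 20 pairs of the 7 genes had r from 0.20 to 0.85 over wells and from -0.43 to 0.41 after subtraction. Of 8621 other genes with at least 10 counts on average, those whose log2 CPM followed Ccn2 most closely over the 32 wells were Flna (r 0.86), Cald1 (0.84), Bgn (0.83), Acta2 (0.83) and Actb (0.82). Flna, Cald1, Acta2 and Actb encode filamin A, caldesmon, smooth muscle actin and β-actin of the contractile cytoskeleton, and Bgn the matrix proteoglycan biglycan. Those most like Ccn1 were Pdlim5 (r 0.86), Cald1 (0.84), Pdlim1 (0.81), Tgfb1i1 (0.81) and Lrrk1 (0.80). Cald1, for instance, had 189 ± 12.9 CPM untreated and 312 ± 29.5 CPM with Activin-A at 12 hrs, and 202 ± 6.64 CPM with IFN-γ and 281 ± 25.9 CPM with both (SD, n = 4).

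Other genes around these 7 were read from lists chosen for their role. Of 17 other genes of the YAP/TAZ target signature, 12 were tested at 4 hrs and 13 at 12 hrs. With Activin-A alone 1 rose at each time, the stress gene Gadd45a, and none fell, beside 1.64% and 2.41% of all genes called. Its log2FC was 0.51 at 4 hrs (SE 0.12) and 0.54 at 12 hrs (SE 0.10). Ccdc80, which encodes a matrix protein, had 0 to 8 counts per untreated well and 7 to 14 with Activin-A at 12 hrs. It passed the filter on low counts mainly through the wells with Activin-A, so that no test of it is given. Ccdc80 is among the 13 tested and in the medians, but not in the count of genes that rose. Under IFN-γ Activin-A raised no gene of the list, beside 0.81% of all genes called at 4 hrs and 1.03% at 12 hrs. Igfbp3, a secreted binding protein of insulin-like growth factors, fell by 0.23 at 12 hrs (SE 0.05). The median log2FC of the list was 0.09 and 0.12 with Activin-A alone and 0.02 and -0.08 under IFN-γ, in the order of the times, and that of all genes was within 0.01 of 0 each time. When IFN-γ was added to Activin-A, 1 rose and 2 fell at each time, beside 6.07% and 9.62% of all genes called: F3, which encodes tissue factor, rose by 0.57 at 4 hrs (SE 0.18) and 0.68 at 12 hrs (SE 0.15), Gadd45a had log2FC of -0.72 (SE 0.12) and -0.80 (SE 0.11), and Igfbp3 of -0.34 (SE 0.05) and -0.71 (SE 0.05). IFN-γ alone lowered Igfbp3 at 4 hrs (log2FC -0.20, SE 0.05) and at 12 hrs (-0.56, SE 0.05), and raised the phosphatase gene Ptpn14 at 12 hrs (0.51, SE 0.15), beside 5.06% and 9.25% of all genes called.

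Of 27 genes of the Hippo pathway and its partners 26 were tested. Wwc2, a KIBRA relative that activates the LATS kinases, rose with Activin-A by 0.77 at 4 hrs (SE 0.17) and 0.55 at 12 hrs (SE 0.15), and by 0.93 under IFN-γ at 4 hrs (SE 0.18). Tead2, one of the TEAD factors, rose by 0.73 at 12 hrs with Activin-A (SE 0.16). The other genes were not called in these comparisons: 25 of 26 at 4 hrs and 24 of 26 at 12 hrs with Activin-A alone, beside 1.64% and 2.41% of all genes called, and 25 and 26 under IFN-γ, beside 0.81% and 1.03%. With IFN-γ alone 1 of 26 rose and 1 fell at 4 hrs, Sav1, a scaffold of the Hippo kinases (log2FC 0.37, SE 0.09), and Wwtr1, which encodes TAZ (-0.34, SE 0.08), and none was called at 12 hrs, where 5.06% and 9.25% of all genes were. When IFN-γ was added to Activin-A, 1 rose and 2 fell at 4 hrs, where 6.07% of all genes were called: Vgll3, a TEAD cofactor (0.65, SE 0.20), Wwtr1 (-0.42, SE 0.08) and Tead1 (-0.41, SE 0.11). At 12 hrs 2 fell, where 9.62% of all genes were called, Tead2 (-0.59, SE 0.16) and Mob1a, a coactivator of the LATS kinases (-0.29, SE 0.09).

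Of the 8 relatives of the CCN and thrombospondin genes, Ccn6, Thbs4 and Comp had no row in the table, and 2 were tested in the comparisons within a time. Thbs2, whose protein like that of Thbs1 restrains angiogenesis, fell by 0.24 with Activin-A at 12 hrs (SE 0.06), where Thbs1 rose. In that comparison 2.41% of all genes were called. Thbs2 was higher with both factors than with Activin-A alone at 12 hrs (log2FC 0.19, SE 0.06, edgeR adjusted p = 0.0252). There 9.62% of all genes were called. Ccn4 was near the floor of detection, with 1 to 20 counts per well. At 12 hrs it had 11.2 to 14.5 CPM with Activin-A and at most 9.04 CPM in the other groups, so that it passed the filter on low counts through the Activin-A group alone and no test of it is given.

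Receptors and ligands of the encoded proteins and their families were read in the same way. Of 13 tested at 4 hrs 5 rose with Activin-A and none fell, beside 1.64% of all genes called, led by the integrin genes Itgb5 (log2FC 0.68, SE 0.12), Itga5 (0.55, SE 0.09) and Itgav (0.46, SE 0.09). The other two, Lrp1 and Itgb1, are named after their values were seen. At 12 hrs 4 of 12 rose, beside 2.41% of all genes called, led by Itgb5 (1.04, SE 0.12), Itgav (0.53, SE 0.09) and Itgb1 (0.44, SE 0.06). Under IFN-γ 2 of 13 rose at 4 hrs, beside 0.81% of all genes called, Itgb5 (0.82, SE 0.13) and Itgav (0.52, SE 0.10). At 12 hrs 1 of 12 rose, Itgb5 (0.75, SE 0.14), and 1 fell, Cd47, a receptor of thrombospondin 1 (-0.34, SE 0.09), beside 1.03%. With IFN-γ alone Cd47 and Sdc4 rose at both times and 2 genes fell at 12 hrs, beside 5.06% and 9.25% of all genes called. IFN-γ raised Cd47 by 0.72 at 4 hrs (SE 0.10) and 0.60 at 12 hrs (SE 0.09). The syndecan gene Sdc4 rose by 0.41 (SE 0.09) and 0.31 (SE 0.09). Pros1, which encodes protein S, a ligand of the Axl relatives Tyro3 and Mertk, had 4 to 14 counts per well without IFN-γ and 10 to 28 with it. Pros1 passed the filter on low counts mainly through the wells with IFN-γ, so that no test of it is given. It is among the genes tested but was left out of those that rose. IFN-γ alone lowered Mertk, a kinase of the Axl family (log2FC -0.82, SE 0.19), and Itgav (-0.31, SE 0.10) at 12 hrs. When IFN-γ was added to Activin-A, beside 6.07% and 9.62% of all genes called, Cd47 and Sdc4 rose at both times, with Pros1 left aside for the same reason, Mertk and Itga5 fell at 4 hrs (log2FC -0.75, SE 0.20 and -0.49, SE 0.09), and 4 of 12 fell at 12 hrs, led by Mertk (-1.08, SE 0.22), Itgav (-0.66, SE 0.10) and Itgb5 (-0.60, SE 0.11). Gas6 had no row in the table.

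Genes known as Smad2/3 targets and feedback genes served as a reference for Activin-A signaling. Of 6 tested, 5 rose at 4 hrs and 3 at 12 hrs with Activin-A alone, beside 1.64% and 2.41% of all genes called, among them Pmepa1, which encodes a feedback inhibitor of Smad signaling (log2FC 2.55, SE 0.11 and 1.87, SE 0.15), and 3 and 1 did under IFN-γ, beside 0.81% and 1.03%. When IFN-γ was added to Activin-A, 2 of the 6 fell at 12 hrs, beside 9.62% of all genes called, Skil (log2FC -1.26, SE 0.29) and Pmepa1 (-1.24, SE 0.14), and at 4 hrs none was called. Ccn2 was thus lower with both factors than with Activin-A at 12 hrs together with these 2 genes, with a smaller log2FC of -0.28. Their median log2FC with Activin-A alone was 0.83 and 0.70, beside 0.69 and 0.68 for Ccn1, Ccn2, Thbs1, Ankrd1, Amotl2, Ajuba and Axl. Counts of these lists are descriptions, since the lists were chosen with earlier results known.

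**Figure D5:**
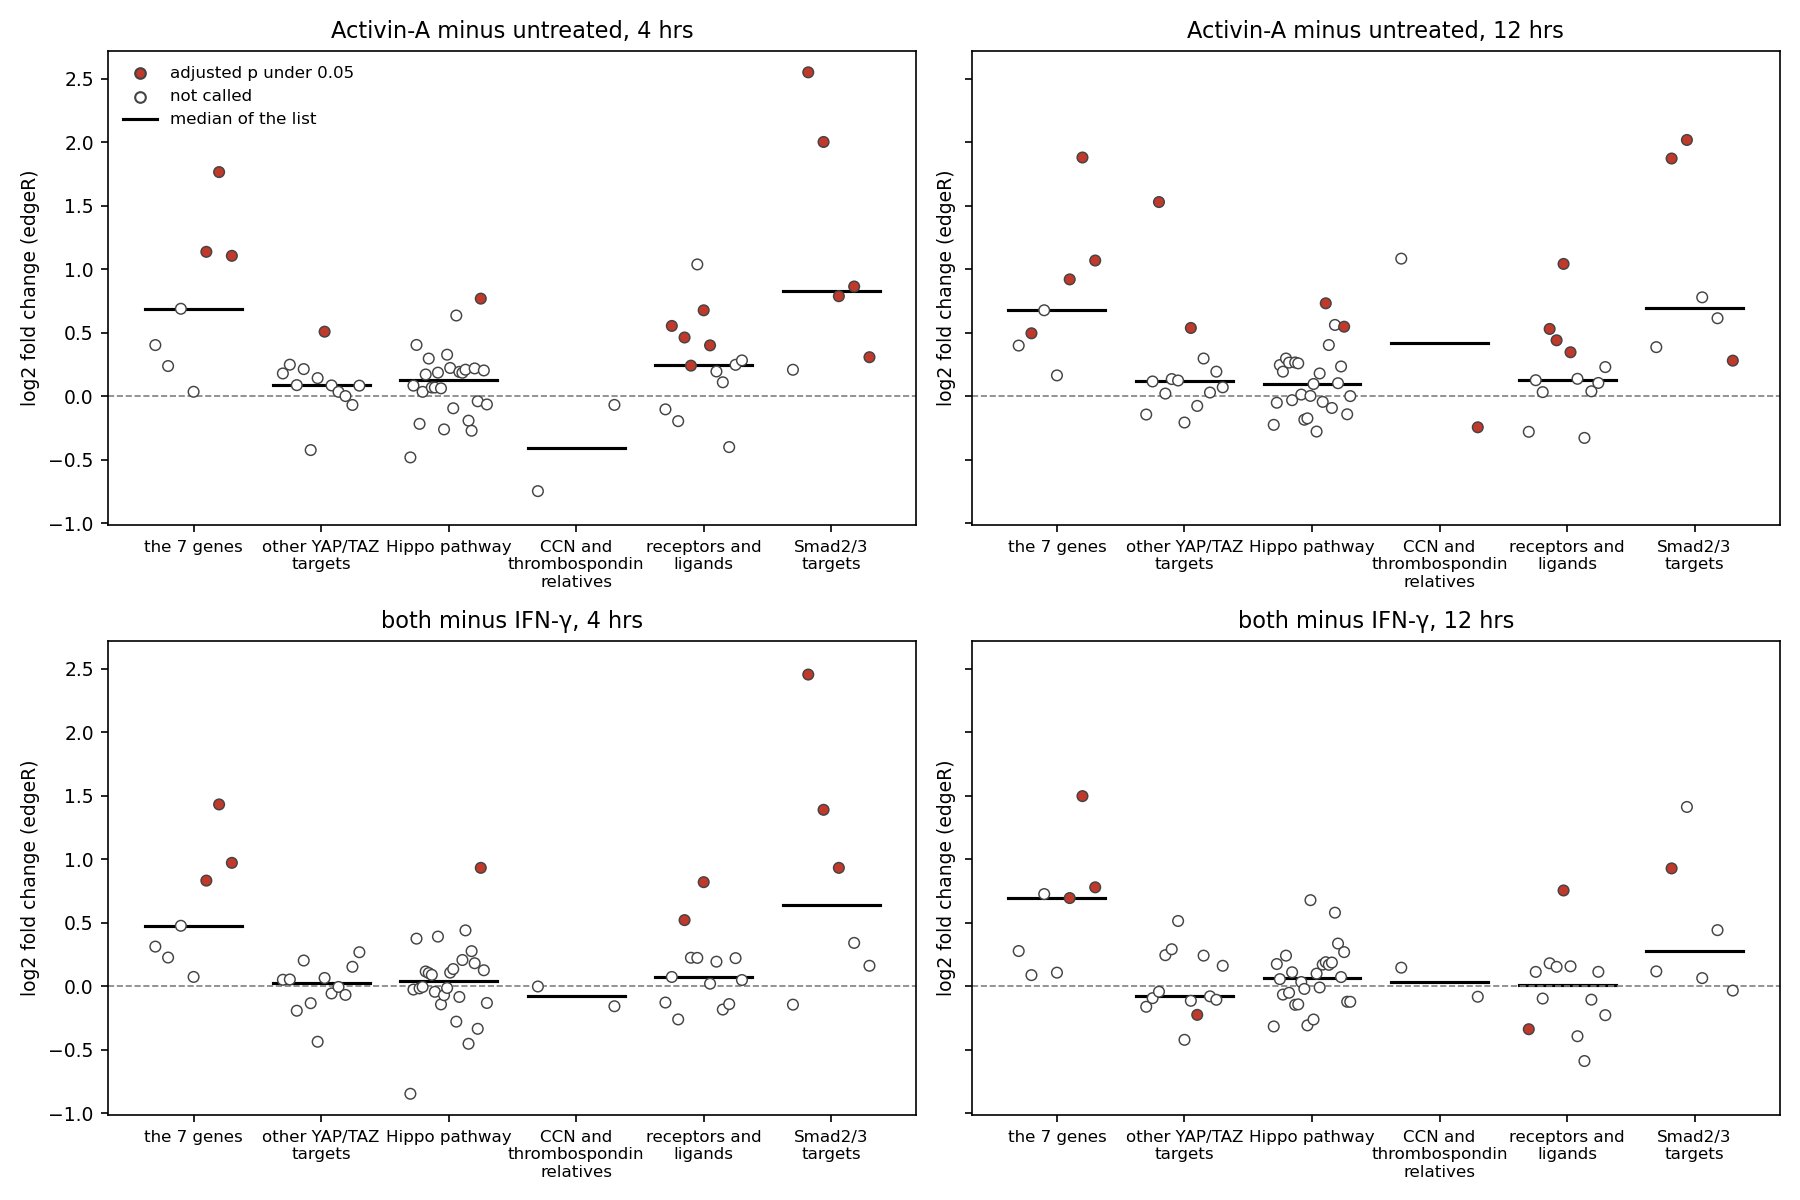
Log2 fold changes (y axis, edgeR) of the tested genes of each list for Activin-A against untreated cells and for both factors against IFN-γ at 4 and 12 hrs, with 1 point per gene, filled where the adjusted p was under 0.05, and a bar at each list's median. With Activin-A alone, 3 of the 7 genes, 5 of 13 receptors and ligands, 5 of 6 Smad2/3 targets, 1 of 12 other YAP/TAZ targets and 1 of 26 Hippo genes are filled at 4 hrs, and under IFN-γ at 12 hrs the counts are 3 of 7, 2 of 12, 1 of 6, 1 of 13 and 0 of 26.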

How the data were processed

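The mRNA of 32 wells of YUMM3.3 cells, 4 for each of 8 groups, was profiled by BRB-seq. The table the authors deposited holds raw read counts, not normalized; CPM were computed here from these deposited counts. The submitters' processing notes name STAR 2.7.10b, featureCounts, DESeq2 1.36.0 and the build GRCm39 (mm39), with no role or order. The gene annotation, the use of strand and the collapse of unique molecular identifiers are not given in the sources used here, so whether duplicate reads were collapsed is unknown. Ensembl identifiers were matched to symbols of GENCODE M21, and promoter windows are RefSeq's on GRCm38.p6. No coordinates of the deposited table were used.

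Groups follow the labelled treatment and time. R 4.3.3 with edgeR 4.0.16 (filterByExpr, TMM, glmQLFit and glmQLFTest) was run over the 16 wells of a time point, or all 32 for contrasts between times, with Benjamini-Hochberg adjustment over all tested genes and calls at an adjusted p under 0.05. SE is the absolute log2FC divided by the square root of F. CPM used TMM factors over 32 wells, and log2 CPM a prior count of 2. Counts of 3 were the floor, and intervals are at 95%. Alternatives were DESeq2 1.42.0 (Wald test), RLE normalization, no filter, at least 10 counts in every well, the replicate number as a block, all 32 wells in a fit, each well left out, and Spearman's for Pearson's coefficient. The fits were tested on simulated counts. Python 3.11.15 with matplotlib 3.10.9 searched motifs and drew plots.

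The 7 genes and all lists were chosen with earlier results of these data known. All 7 were named in every comparison, and from each other list at most 3 called genes at either end of the log2FC range, with exceptions named as such, plus the 5 genes most like Ccn2 and Ccn1. Some genes that this rule would name are not reported here. Replicate numbers do not pair the wells. Promoter windows of Ccn2 and Thbs1 and protein sequences were not used here.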

Additional observations from a re-analysis of the deposited data

Results flagged for a closer look

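Of 56 sets of 4 wells (7 genes in 8 groups), 1 held a well far from the others by Dixon's ratio, where chance alone gives about 1 in 20. Replicate 4 of the untreated wells at 4 hrs had 1036 CPM of Axl, and its other wells had 938 to 945 CPM. Without this well the log2FC of Axl for Activin-A at 4 hrs was 0.077 in place of 0.035, and Axl was not called.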

How the results depend on the processing

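Of 22 calls of the 7 genes in the comparisons of 2 groups, 119 of 128 alternative fits other than left-out wells and 160 of 176 fits with a well left out kept the direction and the call. All calls of Ccn1, Ccn2 and Thbs1 with Activin-A, with or without IFN-γ, of Amotl2 at 12 hrs, of Ccn2 for both factors against Activin-A, of Ccn1 with IFN-γ at 12 hrs, and of Ccn2 and Thbs1 over time were kept in every alternative. With the replicate number as a block 20 of 22 calls were kept, and Thbs1 with IFN-γ at 4 hrs (log2FC 0.21, adjusted p = 0.0502) and Ankrd1 with IFN-γ at 12 hrs (log2FC -0.95, adjusted p = 0.0544) were lost. The same-numbered wells of other groups had a mean r of -0.00095 of their deviations and 6 of 32 wells correlated best with their own number, so the numbers were not used as pairs, and the block moved no count of calls by over 1.5 times. No filter lost Thbs1 with IFN-γ at 4 hrs (adjusted p = 0.0526), and the fit of all 32 wells lost Ankrd1 with IFN-γ (0.0527) and Ccn1 for both factors against Activin-A (0.0758) at 12 hrs.

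DESeq2 called fewer genes: 92 in place of 150 for Activin-A at 4 hrs and 140 of 216 at 12 hrs, 46 of 74 and 59 of 92 for both against IFN-γ, 569 of 863 for both against Activin-A at 12 hrs, 295 of 457 for time, 0 of 1 for the interaction at 12 hrs, and 5 of 9 for the effect under IFN-γ over time. Without a filter the interaction gave 1 gene at 4 hrs and 8 at 12 hrs, and the fit of 32 wells gave 1 at 4 hrs. With a well left out, the counts ran from 47 to 72 for both against IFN-γ at 4 hrs, 0 to 1 and 0 to 6 for the interaction at 4 and 12 hrs, 302 to 374 for time, 0 to 3 for the effect of Activin-A over time and 3 to 18 for that under IFN-γ. The causes were not tested.

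Sign changes were limited to uncalled values. The log2FC of Amotl2 with IFN-γ at 4 hrs was 0.00030 with the replicate block and -0.095 to 0.094 with a well left out. The other ranges with a well left out were -0.00011 to 0.077 for Axl with Activin-A at 4 hrs, -0.19 to 0.046 for Ccn2 with IFN-γ at 4 hrs, -0.10 to 0.075 for Amotl2 for both against Activin-A at 4 hrs, -0.020 to 0.12 for Ajuba with IFN-γ at 12 hrs, -0.095 to 0.023 for Ajuba and -0.014 to 0.049 for Axl for both against Activin-A at 12 hrs, -5.1e-05 to 0.068 for Axl over time, -0.091 to 0.024 for Thbs1 and -0.067 to 0.16 for Ccn2 in the differences of effects over time without and with IFN-γ. The interaction ranged from -0.11 to 0.084 for Amotl2 and -0.00021 to 0.077 for Axl at 4 hrs (Amotl2 0.0012 without a filter) and from -0.15 to 0.31 for Ankrd1 at 12 hrs. The effect over time ranged from -0.44 to 0.19 for Ankrd1 and -0.094 to 0.060 for Ajuba without IFN-γ, and from -0.096 to 0.045 for Ajuba with it. Ajuba without IFN-γ was -0.0011 with DESeq2, -0.00053 with RLE, -0.0093 without a filter and -0.0075 with at least 10 counts in every well. RLE factors moved 0 of 56 mean levels by over 1 SD, and Spearman's coefficient kept 3 of the 5 genes most like Ccn2 and 4 of the 5 most like Ccn1. Depth limited Ankrd1, with 2 to 35 counts per well: it had no fit with at least 10 counts in every well, and DESeq2 gave it no adjusted p over time.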
